A study of Mus musculus with 16 samples.

Results

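The cytochrome P450 families 1 to 3 were followed through 16 mouse liver arrays, 7 from Pdgf-c transgenic mice and 9 from wildtype mice, both of the C57BL/6 background. Members were the genes whose symbol began with Cyp, a family number of 1, 2 or 3, a subfamily letter and a gene number, read from rows of the array with a single gene symbol. The rule gave 53 genes out of 19938 with such a row, in 16 subfamilies, of which 2c had 13 genes, 2d had 10, 2j and 3a had 6 each and 2b had 5. Pdgf-c, or platelet-derived growth factor C, signals to fibroblasts and hepatic stellate cells, and the arrays address the part of stromal cells in liver tumours. The mice carried the transgene or did not, and the labels give no treatment, age, sex, time point or promoter of the transgene. Nothing in the labels says that the samples came from separate animals, so p-values reflect the spread among the arrays, which may be technical.

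P450 enzymes are haem proteins of the endoplasmic reticulum that insert oxygen into drugs, steroids, fatty acids, retinoids and environmental chemicals. Families 1 to 3 carry most hepatic drug oxidation and are expressed mainly in hepatocytes, many of them more strongly near the central vein than near the portal tract. Their genes are switched on by the xenobiotic receptors AHR, which acts on family 1, and CAR and PXR, which act on subfamilies 2b, 2c and 3a. Mice hold large clusters of near-identical P450 genes, so probes of 1 member can read a neighbour, and values of members of 1 cluster are not independent.

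Each value was a log2 intensity of 1 row, made by the authors with GCRMA, with the log base read from the range of 0.71 to 14.67. The row means had a median of 5.25 and the 20th percentile of all values was 3.45. Levels of different rows are not compared, because probes differ in brightness. Pdgfc itself, the gene of the transgene, ran from 6.13 over a median of 6.53 to 6.63 in the transgenic and from 5.76 over 6.00 to 6.19 in the wildtype arrays, with 6 of 7 transgenic arrays above all wildtype arrays (1.36-fold higher, limma adjusted p = 0.00132). Whether its probes lie in the transgene is not given in the sources used here. The labels name stromal cells as the cell type and liver as the tissue, while the protocol extracted RNA of the whole liver. The hepatocyte gene Alb averaged 13.54 in the transgenic and 13.56 in the wildtype arrays. Of 17 measured hepatocyte markers, 5 were lower and 1 higher, with a median difference of -0.05. Many of these rows, such as Alb, lie near the highest value of the table. In the less bright rows F9 differed by -0.33, Asgr1 by -0.16 and Hnf4a by -0.25, all called, and G6pc by -0.54, not called. Of 14 fibroblast and stellate cell markers 13 were higher, with a median of 1.81. In whole tissue, fewer cells of a type and less RNA per cell cannot be told apart.

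Many P450 genes of these families were lower in the transgenic livers and few were higher. Of the 53 members, 25 fell, 2 rose and 26 were not called at an adjusted p of 0.05 (limma, Benjamini-Hochberg over all 35557 rows). Over all 19938 genes the share called lower was 11.1% and the share called higher was 12.1%, that is 2209 and 2422 genes, and 3350 and 1860 when each array was centred on its median. The median difference, transgenic minus wildtype on the log2 scale, was -0.24 over the members and -0.04 over all genes. Of the 9 members that fell at least 1.5-fold, 7 belonged to subfamily 2c, beside Cyp2b10 and Cyp2d40; 0.868% of all genes fell that far with a call. Both groups stood apart without overlap, with transgenic arrays below, in 14 members, against 3.65% of all genes, and with transgenic arrays above in 1 member, Cyp1b1, against 5.43%.

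Dim rows seldom reached a call. Of the 34 members with a row mean above the median row of the table, 23 fell and 2 rose, where 17.4% of all genes above that level fell and 16.4% rose. Of the 19 dimmer members 2 fell, Cyp2d12 and Cyp3a57, and 8 of the 19 lay under the 20th percentile. Of all genes at or under the median row 2.36% fell and 6.31% rose. The median difference of the 34 brighter members was -0.35. In the 34 P450 genes outside the rule 9 fell (26.5%) and 3 rose (8.82%), with a median of -0.13. These included Cyp4a14, a fatty acid omega-hydroxylase, at -2.87 ± 0.412 (SE) and Cyp4f18, a leukotriene hydroxylase of myeloid cells, at 1.02 ± 0.074.

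**Figure D1:**
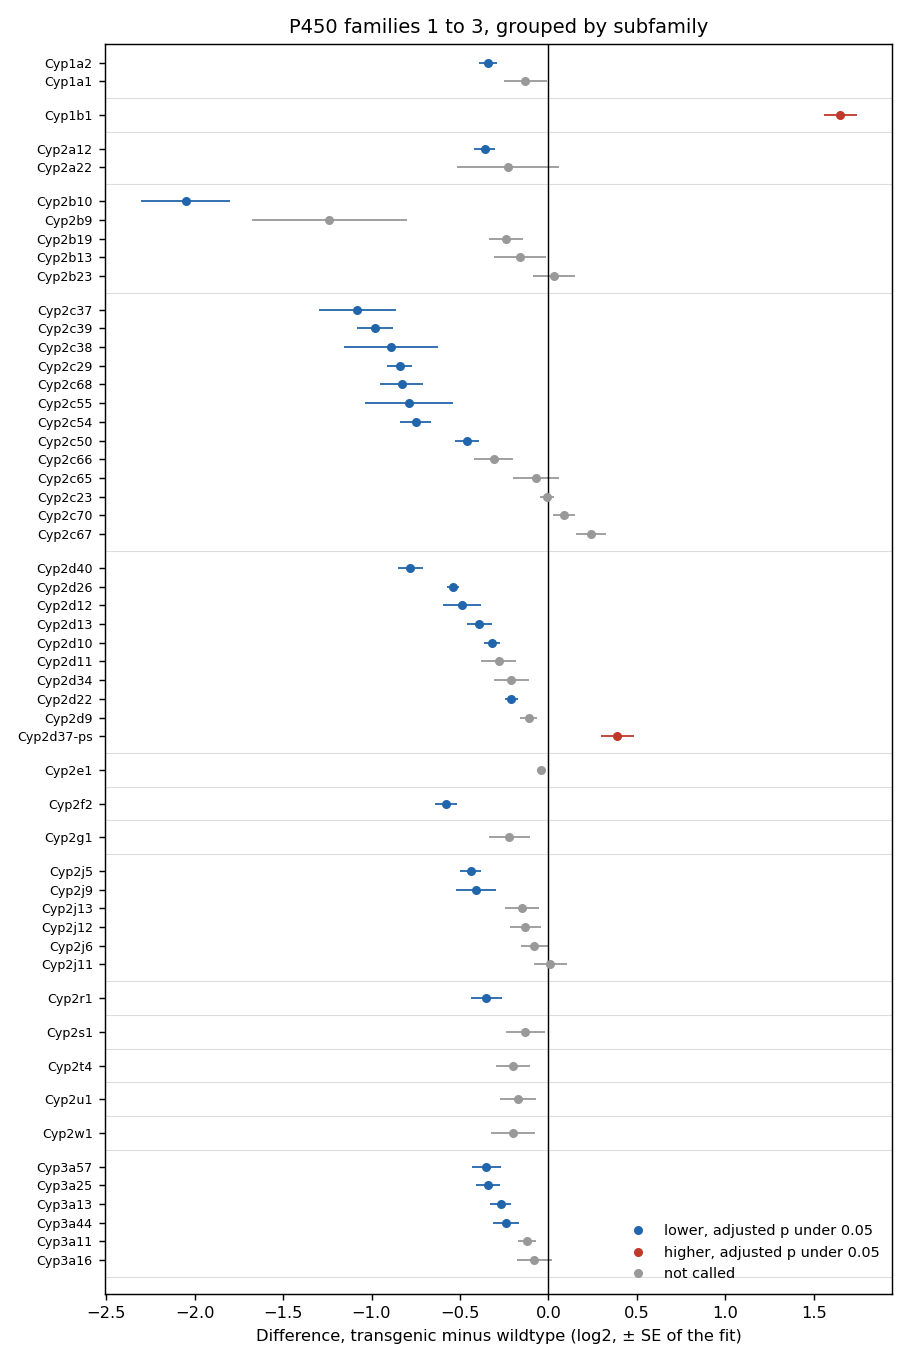
Difference between transgenic and wildtype means for each of the 53 members on the log2 scale (x axis, points with the standard error of the limma fit), grouped by subfamily on the y axis. Blue points were lower and red points higher at an adjusted p under 0.05; Cyp1b1 at 1.65 and Cyp2b10 at -2.05 are the ends of the range.

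**Figure D2:**
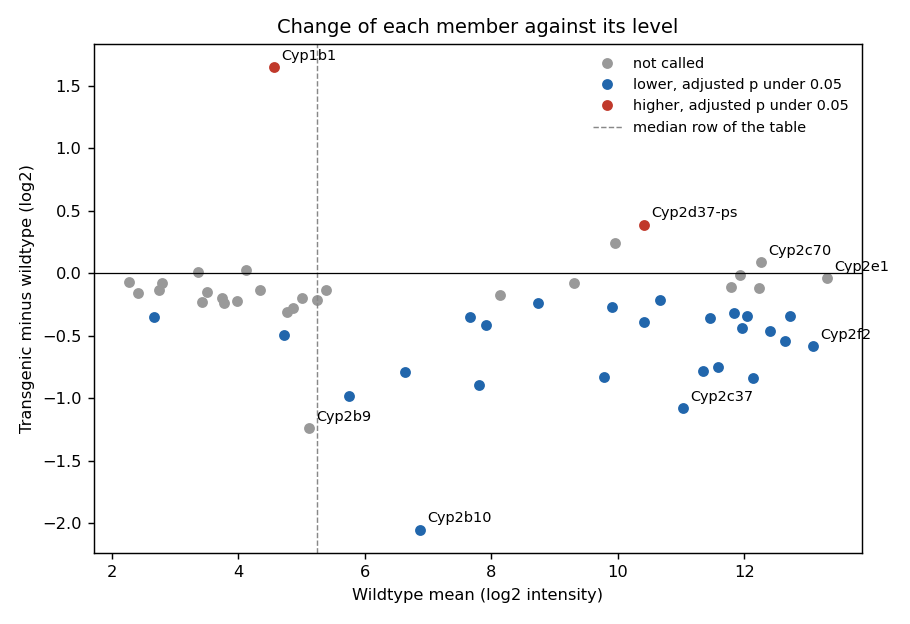
Difference of each member (y axis, log2) against its wildtype mean (x axis, log2 intensity), with the median row of the table, 5.25, as a dashed line. Most blue points, called lower, lie to the right of the line, and Cyp2e1, at the far right, lies near 0.

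Subfamily 1b had a single member and it rose. Cyp1b1 oxidises oestradiol and polycyclic hydrocarbons and, unlike most of its relatives, is expressed mainly outside hepatocytes, in mesenchymal cells among others. Its transgenic values ran from 6.01 over a median of 6.22 to 6.54, and its wildtype values from 4.38 over 4.50 to 4.88. No wildtype array reached the lowest transgenic array. The difference was 1.65 ± 0.0927, or 3.15-fold higher (limma adjusted p = 4.81e-10), and leaving out any 1 array gave 1.6 to 1.69. Fibroblast and stellate cell markers moved the same way, their mean level being 8.15 to 8.46 in transgenic and 6.34 to 6.84 in wildtype arrays, and their part in the Cyp1b1 result was not tested.

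Subfamily 1a did the opposite in part. Cyp1a2, the constitutive hepatic enzyme that clears caffeine and aromatic amines, ranged from 11.45 over a median of 11.76 to 11.89 in the transgenic and from 11.95 over 12.04 to 12.13 in the wildtype arrays. The groups did not overlap, and the fall was 1.27-fold (-0.34 ± 0.0522, limma adjusted p = 9.77e-05). Cyp1a1, the classical inducible target of AHR, was dim in both groups, from 4.01 to 4.51 and from 3.76 to 4.74, and differed by -0.13 ± 0.12 (limma adjusted p = 0.519). Ahr itself differed by 0.23 ± 0.0968 (limma adjusted p = 0.11), and was called higher at 0.29 without wildtype array 5 (limma adjusted p = 0.0197). Of 5 other measured AHR targets, 0 were called; Aldh3a1, with the smallest p among them, differed by -0.18.

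The 250 bases before the start of Cyp1a2 and of Cyp1b1 are shown because the genes belong to 1 family and moved in opposite directions. Sequences are from RefSeq's promoter table on GRCm38.p6, 5′ to 3′ in the direction of the gene. Capitals mark matches, on either strand, to TATAAA (the TATA box), CAAAGTC (a core of HNF4 sites), GTTAAT (an HNF1 site), TTNNGCAA (a C/EBP site), GCGTG (the AHR core) or AGGTCA (a nuclear receptor hexamer). Positions are counted back from the start, the last base before it being -1.
Cyp1a2, chr9:57683656-57683905, minus strand: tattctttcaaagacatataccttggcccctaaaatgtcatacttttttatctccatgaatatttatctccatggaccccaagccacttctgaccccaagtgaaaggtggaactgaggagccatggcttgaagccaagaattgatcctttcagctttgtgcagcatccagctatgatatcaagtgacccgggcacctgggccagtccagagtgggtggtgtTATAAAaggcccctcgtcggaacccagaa
Cyp1b1, chr17:79715062-79715311, minus strand: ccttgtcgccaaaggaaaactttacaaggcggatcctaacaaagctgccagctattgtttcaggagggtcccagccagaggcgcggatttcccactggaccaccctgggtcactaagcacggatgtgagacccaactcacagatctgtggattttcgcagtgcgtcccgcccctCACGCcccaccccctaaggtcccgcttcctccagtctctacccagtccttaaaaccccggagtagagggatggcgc
The Cyp1a2 window held a TATA box from -29 and the Cyp1b1 window an AHR core from -76 on the reverse strand, and the GC content was 47.2% and 58%. Over 132 of 276 alignment columns, 47.8%, the windows were identical. A match is a description of letters and not evidence of binding.

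Subfamily 2b held the largest fall. Cyp2b10, the textbook target of CAR, ranged from 4.47 over a median of 4.87 to 5.07 in the transgenic and from 6.30 over 6.62 to 8.66 in the wildtype arrays. No transgenic array reached the lowest wildtype array. It was 4.14-fold lower (-2.05 ± 0.252, limma adjusted p = 9.92e-06), and 1 wildtype array, number 3, was at 8.66 where the next highest was at 6.94. Without that array the difference was -1.83 (limma adjusted p = 4.78e-09).

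Cyp2b9, a neighbour that is known for higher expression in female liver, had the same high array. Its transgenic values ran from 3.35 over 3.84 to 4.31, and its wildtype values from 4.22 over 4.8 to 8.34, the last again in wildtype array 3. Of the 7 transgenic arrays 6 lay below all wildtype arrays. The difference of -1.24 ± 0.438 was not called (limma adjusted p = 0.0567). It was called at -0.84 without wildtype array 3 (limma adjusted p = 0.00117), at -1.34 without array 1 (0.0478) and at -1.35 without array 2 (0.0451) of the same group. Among all 19938 genes, Cyp2b9 was the one by which wildtype array 3 exceeded the median of the other wildtype arrays most, by 3.56 or 11.8-fold, and Cyp2b10 ranked 3 with 2.08 or 4.22-fold.

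The remaining 2b members were dim and not called. Cyp2b13 differed by -0.16 ± 0.145, Cyp2b19, known from skin, by -0.24 ± 0.0971, and Cyp2b23 by 0.03 ± 0.118. Cyp2b19 was called without transgenic array 1 (-0.29, limma adjusted p = 0.0475) or wildtype array 2 (-0.28, 0.0437). The change of Cyp2b10 minus that of Cyp2b13 was -1.89 ± 0.303, and the change of Cyp2b9 minus that of Cyp2b10 was 0.81 ± 0.235. Cyp2b13, with a row mean of 2.34, lay under the 20th percentile of all values, and Cyp2b9, at 4.58, under the median row. Both had less room to fall than Cyp2b10. Pairs with these 2 genes, here and below, do not tell a larger fall from a brighter start. Adjusted p-values of the 2 pairs with Cyp2b10 were 5.24e-04 and 0.0136 (exact two-sided permutation test over 11440 assignments of the arrays, Benjamini-Hochberg over 18 pairs). The pairs were chosen with earlier results of these data known, and the adjusted p-values of pairs, here and below, do not account for that choice. Cyp2b9 minus Cyp2b13 gave -1.09 ± 0.469 (exact permutation, adjusted p = 0.0188), which was not called without transgenic array 4 (-1.04, adjusted p = 0.0573) or 7 (-1.03, 0.0592).

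The windows before Cyp2b10 and Cyp2b9 are shown because these 2 genes had the lowest differences of the 53 and shared a high array.
Cyp2b10, chr7:25897408-25897657, plus strand: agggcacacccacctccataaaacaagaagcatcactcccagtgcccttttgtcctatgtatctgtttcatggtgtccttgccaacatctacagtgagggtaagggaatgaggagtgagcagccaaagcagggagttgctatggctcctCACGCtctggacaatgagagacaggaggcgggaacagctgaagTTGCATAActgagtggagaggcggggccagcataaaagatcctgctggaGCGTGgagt
Cyp2b9, chr7:26173159-26173408, plus strand: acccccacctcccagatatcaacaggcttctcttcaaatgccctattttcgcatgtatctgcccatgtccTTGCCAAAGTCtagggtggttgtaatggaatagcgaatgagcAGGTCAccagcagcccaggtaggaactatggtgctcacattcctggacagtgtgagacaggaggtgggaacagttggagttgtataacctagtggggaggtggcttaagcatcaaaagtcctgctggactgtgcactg
They were identical in 182 of 260 alignment columns, 70%. Cyp2b10 held a C/EBP site from -58 and AHR cores from -101 and -9, and Cyp2b9 held an HNF4 core from -176 that overlaps a C/EBP site from -180, with a nuclear receptor hexamer from -138. Neither window held a TATA box of these letters.

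**Figure D3:**
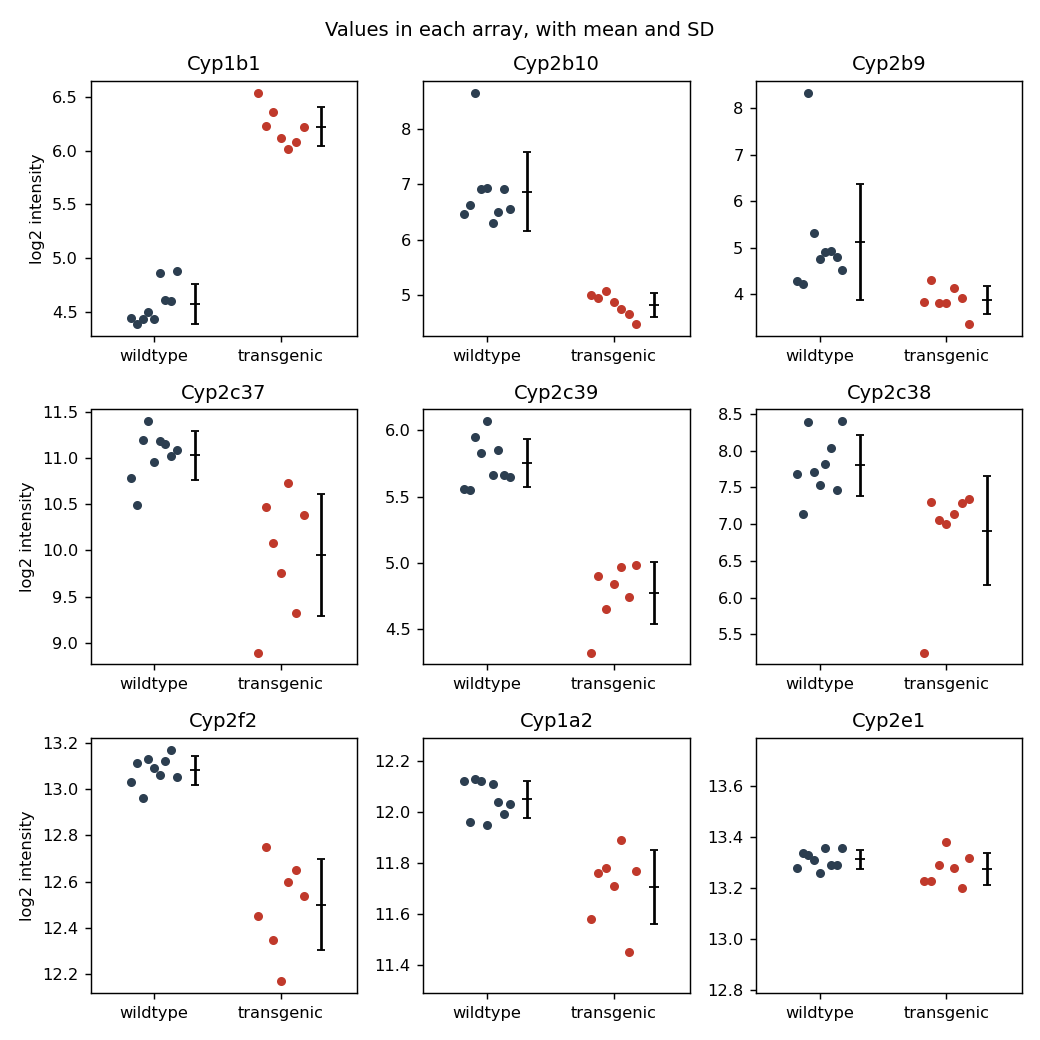
Log2 intensity (y axis) in each wildtype (dark) and transgenic (red) array for 9 members, with the group mean and SD beside the points; points are spread sideways for visibility and each panel has its own scale. Wildtype array 3 stands alone at 8.66 in Cyp2b10 and at 8.34 in Cyp2b9, and transgenic array 1 at 5.25 in Cyp2c38.

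Subfamily 2c, whose enzymes oxidise arachidonic and linoleic acid, retinoids and drugs, was lower in 8 of its 13 measured members and higher in 0. Its median difference was -0.75, and -0.61 without transgenic array 1. Cyp2c29, an abundant epoxygenase, ranged from 10.97 over 11.30 to 11.68 in the transgenic and from 12.03 over 12.15 to 12.24 in the wildtype arrays. The groups were apart by more than the range of the wildtype arrays, and the fall was 1.79-fold (-0.84 ± 0.0698, limma adjusted p = 7.94e-08). Cyp2c39, which hydroxylates retinoic acid, ran from 4.32 over 4.84 to 4.98 against 5.55 over 5.66 to 6.07. It also showed no overlap, with a 1.97-fold fall (-0.98 ± 0.1, limma adjusted p = 1.20e-06).

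Cyp2c37 had the lowest difference of the subfamily and spread widely in the transgenic livers. Its values ran from 8.89 over 10.08 to 10.73 in the transgenic and from 10.49 over 11.09 to 11.40 in the wildtype arrays, with an SD of 0.663 and 0.264. Of the 7 transgenic arrays 6 lay below all wildtype arrays. The fall was 2.12-fold (-1.08 ± 0.216, limma adjusted p = 0.00134). Its close relative Cyp2c54 ran from 10.58 over 10.85 to 11.27 against 11.26 over 11.63 to 11.76 and fell 1.68-fold (-0.75 ± 0.0883, limma adjusted p = 5.89e-06). Cyp2c50 fell 1.37-fold (-0.46 ± 0.067, limma adjusted p = 6.69e-05). In both, 6 of 7 transgenic arrays lay below all wildtype arrays. Cyp2c37 fell further than Cyp2c50 by -0.63 ± 0.218 (exact permutation, adjusted p = 0.00558 over 18 pairs).

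Cyp2c68 was 1.78-fold lower (-0.83 ± 0.123, limma adjusted p = 7.24e-05), from 8.63 over 8.96 to 9.40 against 9.47 over 9.74 to 10.24, with no overlap. Cyp2c38 ran from 5.25 over 7.14 to 7.34 in the transgenic and from 7.14 over 7.71 to 8.40 in the wildtype arrays. Its low end was transgenic array 1, the next transgenic value being 7.0. The difference was -0.89 ± 0.264 (limma adjusted p = 0.0234), and -0.61 without that array (limma adjusted p = 0.013). Cyp2c55, which CAR and PXR induce, ran from 5.08 over 5.65 to 6.92 against 6.02 over 6.75 to 7.05. It differed by -0.79 ± 0.249 (limma adjusted p = 0.0314) and lost its call when transgenic array 1, 2, 3 or 4, or wildtype array 1, 4, 7 or 9, was left out, where the difference was -0.67 to -0.78 and the limma adjusted p 0.0503 to 0.0764.

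5 members of the subfamily were not called. Cyp2c70, the enzyme that makes the muricholic acids of mouse bile, ran from 12.20 to 12.56 in the transgenic and from 12.01 to 12.45 in the wildtype arrays and differed by 0.09 ± 0.0625. Cyp2c23, an epoxygenase, differed by -0.01 ± 0.0394, Cyp2c65 by -0.07 ± 0.132, Cyp2c66 by -0.31 ± 0.111 and Cyp2c67 by 0.24 ± 0.0856. Limma adjusted p-values were 0.367, 0.863, 0.778, 0.0564 and 0.0577 in that order. Cyp2c67 was called higher without transgenic array 6 (0.27, limma adjusted p = 0.0483) or wildtype array 9 (0.29, 0.00746), and Cyp2c66 lower when transgenic array 2 (-0.36), transgenic array 5 (-0.39) or wildtype array 9 (-0.35) was left out. The changes of Cyp2c37 and of Cyp2c39 differed from that of Cyp2c70 by -1.17 ± 0.277 and -1.07 ± 0.144, each with an adjusted p of 3.15e-04 (exact permutation over 18 pairs), from the smallest p that 11440 assignments allow, 8.74e-05. Cyp2c29 against Cyp2c37 (0.24 ± 0.209, adjusted p = 0.25) and Cyp2c38 against Cyp2c39 (0.09 ± 0.248, 0.715) were not called by the same exact test.

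In their order along chromosome 19 (gene table of GRCm38.p6, used for order only), the 2c genes that fell were not contiguous. From Cyp2c29 the run was -0.84, then -0.98 for Cyp2c39 and -0.89 for Cyp2c38, then 0.24 for Cyp2c67 and -0.83 for Cyp2c68. After Cyp2c40 and Cyp2c69, which had no single-symbol row, came Cyp2c37, Cyp2c54 and Cyp2c50 at -1.08, -0.75 and -0.46, and then Cyp2c70 and Cyp2c23 near 0. The pair Cyp2c67 and Cyp2c68 is closely related in sequence, and their rows had differences of opposite sign, so which gene each row reads is uncertain. Whether the genes that fell form 1 unbroken block cannot be told from these rows.

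**Figure D4:**
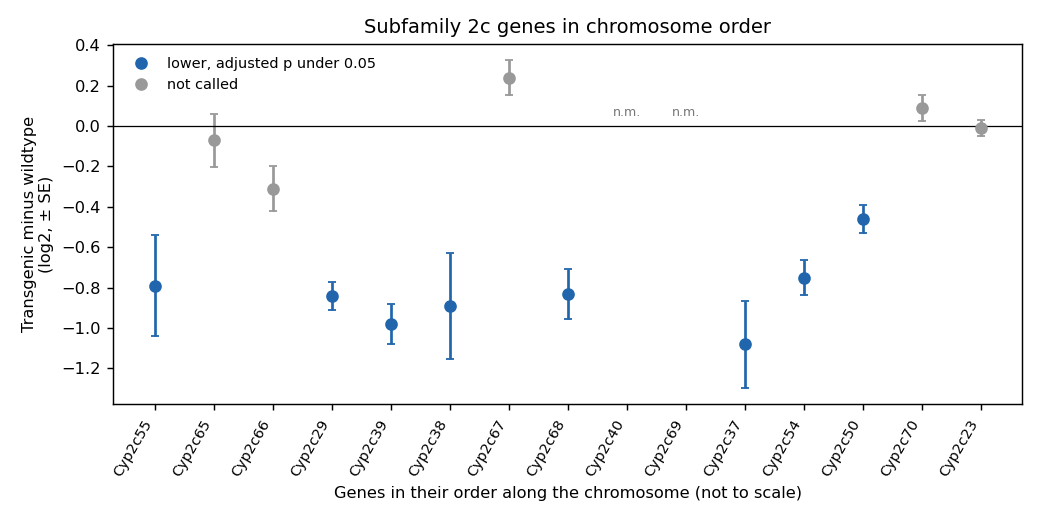
Difference of each 2c gene (y axis, log2, with the standard error) in the order of the genes along the chromosome (x axis, not to scale); n.m. marks genes with no single-symbol row. The 8 blue points were called lower, and Cyp2c67, Cyp2c70 and Cyp2c23 lie between 0.24 and -0.01.

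Windows of Cyp2c37, Cyp2c50 and Cyp2c70 are shown because the first fell further than the second and the third was not called.
Cyp2c37, chr19:39992174-39992423, plus strand: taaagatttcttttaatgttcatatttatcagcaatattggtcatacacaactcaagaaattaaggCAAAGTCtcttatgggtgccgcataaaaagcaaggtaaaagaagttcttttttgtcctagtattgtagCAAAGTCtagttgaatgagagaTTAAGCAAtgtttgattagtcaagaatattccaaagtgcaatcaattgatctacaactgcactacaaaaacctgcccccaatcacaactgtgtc
Cyp2c50, chr19:40089429-40089678, plus strand: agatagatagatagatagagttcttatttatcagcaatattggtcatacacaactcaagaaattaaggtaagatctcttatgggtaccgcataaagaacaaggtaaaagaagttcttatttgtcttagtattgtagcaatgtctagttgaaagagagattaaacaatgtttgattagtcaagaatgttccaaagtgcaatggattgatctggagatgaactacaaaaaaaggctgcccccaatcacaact
Cyp2c70, chr19:40187287-40187536, minus strand: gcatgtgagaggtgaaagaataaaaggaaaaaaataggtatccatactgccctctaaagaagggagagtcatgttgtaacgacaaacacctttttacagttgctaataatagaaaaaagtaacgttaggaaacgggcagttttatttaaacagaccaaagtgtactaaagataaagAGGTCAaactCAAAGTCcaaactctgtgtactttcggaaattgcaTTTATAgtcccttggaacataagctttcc
Cyp2c37 and Cyp2c50 were identical in 84.3% of alignment columns, and Cyp2c37 and Cyp2c70 in 47.2%. Cyp2c37 held HNF4 cores from -184 and -116 and a C/EBP site from -94, none of which had a counterpart of these letters in Cyp2c50. Cyp2c70 held an HNF4 core from -64, a nuclear receptor hexamer from -74 and a TATA box from -29 on the reverse strand.

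Promoter windows were available for 44 of the 53 members. A TATA box of these letters stood in 47.7% of them and in 13% of all 27025 windows, an HNF4 core in 27.3% against 3.8%, a C/EBP site in 20.5% against 9.55%, and a nuclear receptor hexamer in 31.8% against 13.8%. The AHR core was in 18.2% against 28.2% and the HNF1 site in 4.55% against 6.52%. Between the 21 windows of members that fell and the 22 of members not called, the TATA box was in 10 and 11, the HNF4 core in 4 and 8, and the hexamer AGGTCA in 7 and 7. Windows within a cluster share sequence, so these counts are not independent.

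Subfamily 2d, the relatives of the human debrisoquine hydroxylase, fell in 6 of 10 members and rose in 1. Its median difference was -0.30, and -0.35 without transgenic array 2. Cyp2d40 ran from 10.20 over 10.64 to 10.80 in the transgenic and from 11.21 over 11.34 to 11.48 in the wildtype arrays. The groups did not overlap, and the fall was 1.72-fold (-0.78 ± 0.0723, limma adjusted p = 3.37e-07). Cyp2d26 was lower in every transgenic array, 11.94 over 12.14 to 12.21 against 12.54 over 12.65 to 12.71, with a 1.45-fold fall (-0.54 ± 0.0352, limma adjusted p = 3.71e-09). Cyp2d12, Cyp2d13, Cyp2d10 and Cyp2d22 fell by 0.49, 0.39, 0.32 and 0.21 on the log2 scale, the last 3 with no overlap between groups.

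Cyp2d9, a steroid 16-alpha-hydroxylase known for higher expression in male liver, differed by -0.11 ± 0.0479 (limma adjusted p = 0.126), and was called at -0.14 without wildtype array 3 (0.0363) and at -0.16 with each array centred on its median (0.0166). Its change was smaller than that of Cyp2d10 by 0.21 ± 0.0514 (exact permutation, adjusted p = 0.00256 over 18 pairs) and differed from that of Cyp2d22 by 0.10 ± 0.0528 (0.107). Cyp2d11 at -0.28 ± 0.0983 and Cyp2d34 at -0.21 ± 0.0976 were not called (limma adjusted p = 0.0526 and 0.159); Cyp2d11 was called without transgenic array 2 (-0.36, 0.00455) and Cyp2d34 without wildtype array 9 (-0.26, 0.0493). The row of the pseudogene Cyp2d37-ps was 1.31-fold higher (0.39 ± 0.0946, limma adjusted p = 0.00624), from 10.52 over 10.84 to 11 against 10.01 over 10.46 to 10.72. A pseudogene shares sequence with its parent genes, so the source of that signal is uncertain.

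Cyp2e1 and Cyp2f2, textbook markers of opposite ends of the lobule, did not move together. Cyp2e1, the ethanol- and acetaminophen-oxidising enzyme of pericentral hepatocytes, ran from 13.20 over 13.28 to 13.38 in the transgenic and from 13.26 over 13.31 to 13.36 in the wildtype arrays. The groups overlapped, with a difference of -0.04 ± 0.0264 (limma adjusted p = 0.357), which was called at -0.09 with each array centred on its median (0.0495). Like that of Alb, the Cyp2e1 row lay near the highest value of the table, where a change may show less. Its small difference therefore does not show that the gene was spared. Cyp2f2, the naphthalene-oxidising enzyme of periportal hepatocytes, ran from 12.17 over 12.54 to 12.75 against 12.96 over 13.09 to 13.17. No array overlapped, and it fell 1.49-fold (-0.58 ± 0.0631, limma adjusted p = 2.56e-06).

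The changes of Cyp2e1 and Cyp2f2 differed by 0.54 ± 0.0966, and those of the pericentral pair Cyp1a2 and Cyp2e1 by -0.30 ± 0.0531 (exact permutation, adjusted p = 3.15e-04 each, over 18 pairs). In both comparisons all 7 transgenic arrays stood on 1 side of all wildtype arrays. Both rest on the bright Cyp2e1 row, with the limit given above. Among other genes of the lobule's axis, 3 of 12 measured pericentral genes rose and 0 fell, with a median of 0.21; they were Slc1a4 (0.68 ± 0.106), Gulo (0.42 ± 0.0417) and the glutamine synthetase gene Glul (0.37 ± 0.0933). Of 12 periportal genes 8 fell and 1, Cdh1, rose, with a median of -0.38; Ctsc was at -0.84 ± 0.0946, the histidine ammonia-lyase gene Hal at -0.82 ± 0.158 and Pigr at -0.64 ± 0.0581. Over all genes 12.1% rose and 11.1% fell, and of those above the median row 16.4% rose and 17.4% fell. The 3 rises among 12 pericentral genes are thus not far from the share of all genes. The part of these genes in the Cyp2f2 result was not tested.

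Subfamily 3a, to which the human enzyme of most drug oxidation belongs, had differences between -0.35 and -0.08. Of 6 members 4 fell and 0 rose, with a median of -0.25. Cyp3a11, the main PXR target, ran from 12 over 12.14 to 12.22 in the transgenic and from 11.94 over 12.27 to 12.35 in the wildtype arrays. It differed by -0.12 ± 0.0493 (limma adjusted p = 0.0922). Its lowest value of all was wildtype array 5, and without that array the difference was -0.16 (limma adjusted p = 0.00169), as it was after quantile normalization (0.0242). Cyp3a25 ran from 12.01 over 12.44 to 12.60 against 12.52 over 12.71 to 12.85, with 6 of 7 transgenic arrays below all wildtype arrays. Cyp3a25 and Cyp3a13 fell 1.26-fold (-0.34 ± 0.067) and 1.2-fold (-0.27 ± 0.0591), with limma adjusted p-values of 0.00127 and 0.00318, and Cyp3a13 showed no overlap.

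Cyp3a44, another gene with higher expression in female liver, differed by -0.24 ± 0.0739 (limma adjusted p = 0.0309) and lost its call when transgenic array 1, 3, 4 or 6, or wildtype array 3, 4, 7, 8 or 9, was left out (limma adjusted p = 0.0522 to 0.0722). Cyp3a57, from 2.16 over 2.29 to 2.62 against 2.38 over 2.67 to 2.86, was called lower (limma adjusted p = 0.00448). It lay under the 20th percentile of all values, so no fold is given, and with values floored at that percentile it had no difference left and no call (limma adjusted p = 1). Without this gene 3 of the 6 members fell. Cyp3a16, a gene of fetal liver, differed by -0.08 ± 0.0982. Cyp3a11 changed less than Cyp3a25 by 0.21 ± 0.0702, less than Cyp1a2 by 0.22 ± 0.0606 and less than Cyp2b10 by 1.92 ± 0.259 (exact permutation, adjusted p = 0.00315, 0.00425 and 3.15e-04 over 18 pairs). Against Cyp3a13 the difference of 0.14 ± 0.0763 was not called (adjusted p = 0.107 by the same exact test), and was called without transgenic array 6 (0.17, 0.0493).

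In the remaining subfamilies 4 members fell and 0 rose. Cyp2a12, a steroid and bile acid hydroxylase, ran from 10.91 over 11.15 to 11.35 against 11.36 over 11.45 to 11.68 and fell 1.28-fold (-0.36 ± 0.0594, limma adjusted p = 2.35e-04). Cyp2j5, an arachidonic acid epoxygenase, ran from 11.23 over 11.49 to 11.70 against 11.86 over 11.96 to 12.04 and fell 1.36-fold (-0.44 ± 0.06, limma adjusted p = 3.23e-05). Neither showed overlap. Cyp2j9 differed by -0.41 ± 0.113 (limma adjusted p = 0.0148), and by -0.29 without transgenic array 1 (0.00555), while Cyp2j6 was at -0.08 ± 0.0751; Cyp2j5 fell further than Cyp2j6 by -0.36 ± 0.0888 (exact permutation, adjusted p = 0.00247 over 18 pairs). Cyp2r1, a vitamin D 25-hydroxylase, ran from 6.93 over 7.27 to 7.59 against 7.53 over 7.65 to 7.86 and fell 1.27-fold (-0.35 ± 0.0879, limma adjusted p = 0.00823).

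The other members of these subfamilies were not called. Cyp2a22, Cyp2j11, Cyp2j12 and Cyp2j13 were dim and lay between -0.23 and 0.01. Cyp2a22, at -0.23 ± 0.289, moved to -0.53 when transgenic array 6, its highest at 5.02, was left out (limma adjusted p = 0.0513). Cyp2g1, an olfactory enzyme, ran from 3.43 to 4.24 in the transgenic and from 3.70 to 4.26 in the wildtype arrays (-0.22 ± 0.116). Cyp2s1 ran from 4.90 to 5.78 and from 5.27 to 5.59 (-0.13 ± 0.11), and Cyp2t4 from 3.27 to 3.92 and from 3.46 to 3.91 (-0.20 ± 0.0939). Cyp2w1 ran from 4.42 to 5.02 and from 4.41 to 5.39 (-0.20 ± 0.127), and Cyp2u1, a fatty acid hydroxylase, from 7.76 to 8.08 and from 7.55 to 8.45 (-0.17 ± 0.102). All of these ranges overlapped. Cyp2u1 was called without wildtype array 3 (-0.25, limma adjusted p = 0.0206) and Cyp2t4 without transgenic array 4 (-0.26, 0.05). A further 5 rows carried several P450 symbols of these families and were left out of the members; 3 of them were lower and 0 higher, between -0.47 and -0.08. They cover 7 genes that had no row of their own.

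Averaged over all 53 members, each transgenic array lay below the wildtype mean, from -0.44 over a median of -0.33 to -0.21, and the wildtype arrays ran from -0.10 to 0.11. The lowest was transgenic array 1 and the highest transgenic array 5. In subfamily 2c the transgenic arrays ran from -0.89 over -0.51 to -0.23 and the wildtype arrays from -0.22 to 0.15, and in 2d from -0.49 over -0.28 to -0.17 against -0.07 to 0.06. Subfamily 2b ran from -0.95 to -0.53 against -0.41 to 1.04, the latter being wildtype array 3. Subfamilies 1a, 2a, 2e, 2j and 3a overlapped between the groups. The mean of the 17 hepatocyte markers ran from -0.17 to -0.02 in transgenic and from -0.06 to 0.03 in wildtype arrays. It pools rows near the highest value of the table with less bright ones, which had the lower differences. The median SD of the members was 0.156 in wildtype and 0.189 in transgenic arrays, beside 0.148 and 0.156 over all genes.

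**Figure D5:**
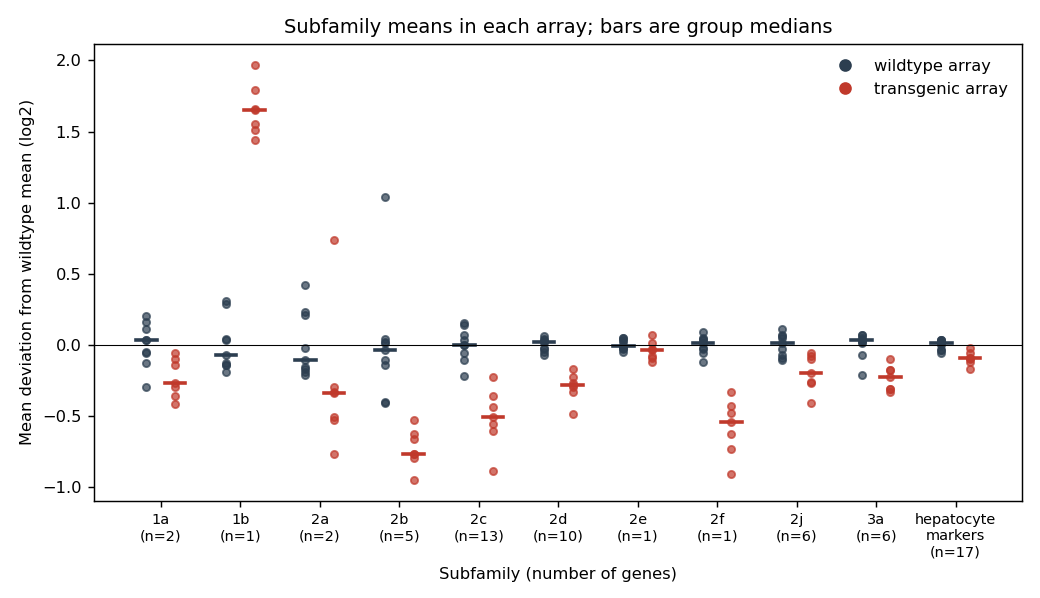
Mean deviation from the wildtype mean (y axis, log2) over the genes of each subfamily (x axis) in each wildtype (dark) and transgenic (red) array, with group medians as bars and the hepatocyte markers at the right. Subfamilies 1b, 2b, 2c, 2d and 2f show no overlap, and the high wildtype point of 2b, at 1.04, is array 3.

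The regulators of these genes were lower in part. Of 23 measured receptors and factors 9 fell and 1 rose, with a median of -0.19. Over all genes 11.1% fell and 12.1% rose, and of those above the median row 17.4% fell and 16.4% rose. Of the 10 called, 7 kept their call whichever single array was left out, and Esrra, Hlf and Hnf4a did not. Cebpa lost its call after quantile normalization (-0.15, limma adjusted p = 0.0829). Nr1i3, which encodes CAR, fell 1.37-fold (-0.46 ± 0.0757, limma adjusted p = 2.37e-04), and Nr1i2, which encodes PXR, 1.2-fold (-0.27 ± 0.0698, 0.0107). The oxysterol receptor gene Nr1h3 was at -0.51 ± 0.0642, Rxrb at -0.30 ± 0.0611 and the hepatocyte factor Hnf4a at -0.25 ± 0.076, all called lower. Hnf4a lost its call after quantile normalization (-0.22, limma adjusted p = 0.0588) and when transgenic array 4 (0.0505), 6 (0.0556) or 7 (0.0522) was left out. Ppargc1a, a coactivator of fasting metabolism, rose 1.56-fold (0.64 ± 0.14, 0.00268), and Ppara differed by -0.15 ± 0.0841 (0.269).

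Of 17 other measured targets of CAR and PXR 6 fell, 1 rose and 10 were not called, with a median of -0.13. Of the 7 called, 6 kept their call whichever single array was left out. Abcc3, lower at -0.30, lost it in 12 of the 16 such settings. Among all genes 11.1% were called lower and 12.1% higher. The carboxylesterase gene Ces2a fell 1.57-fold (-0.65 ± 0.0948), the retinaldehyde dehydrogenase gene Aldh1a1 1.39-fold (-0.47 ± 0.0622) and the epoxide hydrolase gene Ephx1 1.29-fold (-0.36 ± 0.0767), whereas the glutathione transferase gene Gstm3 rose 1.73-fold (0.79 ± 0.145). Of 12 measured genes of electron supply and haem synthesis 4 fell and 1, the reductase gene Cyb5r3, rose (0.14 ± 0.0436). Cyb5r3 was not called with each array centred on its median (0.09, limma adjusted p = 0.229) or when transgenic array 3, 4, 5, 6 or 7, or wildtype array 2 or 5, was left out. Those that fell were Pgrmc1 (-0.42 ± 0.0486), a P450-binding membrane protein, Cpox (-0.40 ± 0.0977) and Urod (-0.19 ± 0.0566) of haem synthesis, and Cyb5b (-0.28 ± 0.0595); Urod was not called without transgenic array 4 (-0.17, limma adjusted p = 0.0591). Por, the main P450 reductase, had no single-symbol row.

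Several members differ between the sexes in mouse liver, and the sex of the mice is not in the labels. Xist, the RNA of the inactive X chromosome, ran from 3.16 to 3.85 over all 16 arrays and the Y-linked gene Eif2s3y from 8.70 to 9.39, with no call in any of 4 measured sex chromosome genes. Xist thus lay under the median row of 5.25 and Eif2s3y above it in every array. That is the pattern of male liver, in both groups. Of 13 male-biased genes outside these families 5 fell and 2 rose, with a median of -0.16. The fatty acid elongase gene Elovl3 was at -0.70 ± 0.159 and the complement gene C6 at 0.76 ± 0.11. Among the called ones Cyp7b1, which fell, and Selenbp2, which rose, lost their call without some single arrays. Of 12 female-biased genes 3 fell and 1 rose, with a median of -0.08, beside 11.1% lower and 12.1% higher of all genes. Cyp4a14, given above, was 1 of those that fell, and Acot3 was at -1.71 ± 0.238. Fmo2, which rose, and Prom1, which fell, lost their call when some single arrays were left out. A1bg, Hao2 and Sult3a1 lay under the 20th percentile of all values and were not called. Hepatic P450 expression is also known to fall in inflammation. Of 18 inflammation and acute phase genes 5 fell and 0 rose (median -0.11), among them the orosomucoid gene Orm2 at -0.66 ± 0.216 and the hepcidin gene Hamp at -0.54 ± 0.101. The 13 not called went both ways, with Orm3 at -0.49, Lcn2 at 0.58 and Saa2 at 0.67. Of the 5 that fell, Hamp, Orm1 and Crp kept their call whichever single array was left out. Orm2 lost it when transgenic array 1, 3, 5, 6 or 7, or wildtype array 4 or 5, was left out (limma adjusted p = 0.0509 to 0.0838), and Apcs in 13 of the 16 such settings. Of 11 leukocyte markers 7 rose and 0 fell (median 0.83), the neutrophil gene S100a8 being at 2.99 ± 0.245. Of 12 Kupffer cell and macrophage markers 5 rose and 6 fell, and their median of -0.20 hides this split. Cd5l, Cd163, Clec4f, Timd4, Vsig4 and Marco fell, with differences between -2.83 (Cd5l) and -0.67 (Marco). Ms4a7, Cx3cr1, Ccr2, Lyz2 and Csf1r rose, with differences between 0.38 (Csf1r) and 2.26 (Ms4a7). Among sinusoidal endothelial markers 6 of 8 fell (median -0.97), and 0 of 5 cholangiocyte markers were called (median -0.05). The mean level of the leukocyte markers was 5.35 to 5.85 in transgenic and 4.50 to 4.76 in wildtype arrays. Their part in the P450 results was not tested.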

How the data were processed

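RNA of the whole liver carried a biotin label and was read on the Affymetrix Mouse Gene 1.0 ST Array, per the labels' protocols. The deposited values are log2 intensities that the authors made with GCRMA, per the submitters' processing notes; its version and settings are not given in the sources used here. They were used without a filter or rescaling. Of 35557 rows, 21789 had 1 symbol, 1621 several and 12147 none. Where a gene had several rows, its brightest was used, which left 19938 genes. A match by entrez number to RefSeq's genes of GRCm38.p6 was found for 21698 rows and changed 0 symbols. Transgenic and wildtype arrays were set against each other in limma 3.58.1 (R 4.3.3; lmFit, eBayes with trend, two-sided, 14 residual degrees of freedom), with Benjamini-Hochberg adjustment over all rows and a threshold of 0.05. In simulated data of 35557 rows, changes of 1.25-fold were found in 30% of changed rows, of 1.5-fold in 86%, of 2-fold in 92% and of 4-fold in 100%, and 7 calls were false. The simulation changed far fewer rows than the 6721 (18.9%) called in the real data, which made its adjusted threshold stricter. These shares therefore do not give the power of the real comparison. Precision is limited by how many arrays there are.

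The members, gene lists and pairs were chosen with earlier results of these data known. Of 19 pairs, 18 had rows for both genes; lists were described by counts and medians and not tested as sets. Named genes were the called members, with values by group for the 12 of largest difference, the member of largest difference in each subfamily and 5 textbook enzymes, and up to 4 called genes of each other list; further ones were named after their values were seen. Sequences were aligned with Biopython 1.88, global, and plots drawn with matplotlib 3.10.9 in Python 3.11.15. Alternatives were 2 other scalings, row filters, other eBayes settings, weights for arrays, values floored at percentile 20, the replicate block and leaving out arrays.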

Additional observations from a re-analysis of the deposited data

Results flagged for a closer look

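In each group the highest and lowest array of every member was set against Dixon's 95% critical value for the gap to its neighbour over the range (0.568 for 7 arrays, 0.493 for 9). Of 106 such groups 10 were beyond it, and chance gives about 1 in 20. In wildtype array 3 the highest values of Cyp2b9 (8.34, ratio 0.735) and Cyp2b10 (8.66, ratio 0.729) and the lowest of Cyp2u1 (7.55, ratio 0.509) stood apart. In transgenic array 1 the lowest values of Cyp2c38 (5.25, ratio 0.838) and Cyp2j9 (6.79, ratio 0.736) did. In transgenic array 6 the highest values of the dim rows Cyp2a22 (5.02, ratio 0.671) and Cyp2j13 (3.81, ratio 0.589) stood apart, and in transgenic array 5 that of Cyp3a57 (2.62, ratio 0.582). The others were Cyp2a12 in wildtype array 9 (11.68, ratio 0.582) and Cyp3a11 in wildtype array 5 (11.94, ratio 0.689).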

How the results depend on the processing

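Over 27 alternatives the count of members called lower lay between 22 and 33 and the count called higher between 2 and 3, beside 25 and 2; the highest, 33, came with each array centred on its median. Over all genes that centring gave 3350 lower and 1860 higher, beside 2209 and 2422 as deposited, and the median gene moved from -0.04 to -0.09. With the replicate number as a block (replicate block), 22 members were lower, with Cyp2c55, Cyp2j9 (-0.39, limma adjusted p = 0.0921) and Cyp3a44 no longer called, and 3 higher (1670 and 2147 of all genes); same-numbered arrays did not deviate together (7 pairs, r from -0.0186 to 0.0859), and 0 of 7 correlated best with their own number, so the numbers do not pair the arrays. Leaving out each of the 16 arrays, 25 of the 27 called members kept their call and 10 others gained one in at least 1 setting. Centring moved the median of subfamily 2d to -0.35 and of 2e to -0.09, and dropping transgenic array 1 and wildtype array 9 together, chosen after seeing the data, moved that of 2c to -0.54 and gave a call to Cyp2c38 minus Cyp2c39 (0.38, exact permutation adjusted p = 0.036). Without 1 array at a time, the median of 2c lay between -0.82 and -0.61 and of 2d between -0.35 and -0.27, and Cyp2b9 minus Cyp2b13 between -1.25 and -0.66. In the same way Cyp3a11 minus Cyp3a13 lay between 0.10 and 0.17 and Cyp1a1 minus Cyp1a2 between 0.14 and 0.26, the latter called without wildtype array 7 (0.26, exact permutation adjusted p = 0.039). The causes were not tested. Dim rows, 8 of them under the 20th percentile of 3.45, limit what can be seen in these members.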

Other observations

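Beside Cyp2b9 and Cyp2b10, the genes by which wildtype array 3 most exceeded the median of the other wildtype arrays were Mt2 (2.32 on the log2 scale, rank 2 of 19938), Gadd45g (1.64), Mt1 (1.5), Cyp26a1 (1.5), Lpin1 (1.46) and Fkbp5 (1.41). Mt1 and Mt2 are metallothioneins, Cyp26a1 degrades retinoic acid, and Fkbp5 is a classical glucocorticoid target. These genes were picked because of that array, and their values are a description with no test. In the same array Cyp1a2 stood at 0.09 and Cyp1b1 at -0.12 from that median.

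In 36 of the 53 members the SD over the transgenic arrays was larger than over the wildtype arrays, beside 54.3% of all genes. No test was run on this count, since the members of a cluster share sequence.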
